A study of Sus scrofa with 18 samples.

Results

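FOS and EGR1 varied widely between piglet retinas, and the 18 retinas measured here were sorted by these genes. The groups were selected on measured values: the log2 levels of FOS and EGR1, taken from the brightest probe set of each, were averaged per array, the 6 highest arrays were called high, the 6 lowest low, and the 6 between them were left out. The comparison thus used 12 of 18 retinas, and FOS and EGR1 themselves are given only as a description. It asked which other genes varied with this pair between animals.

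Retinas came from male Landrace x Large White piglets at postnatal day 38, and the total RNA of each of the 18 samples was put on 1 Affymetrix pig array. From an age of 3 days, 9 piglets drank pig milk replacer alone (control) and 9 drank it with sialyllactose, a milk sugar that carries sialic acid, and all were kept under 12 h of light per day. The high group held 3 control and 3 sialyllactose retinas, the low group 4 control and 2 sialyllactose, and the middle group 2 control and 4 sialyllactose. Tissue was frozen in liquid nitrogen after sacrifice, and the labels name no hour of collection, light exposure at sacrifice, litter or array batch, so none was set beside the FOS and EGR1 levels.

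FOS and EGR1 are immediate early genes, which cells switch on within minutes of a stimulus without new protein synthesis, through kinases that act on factors already bound at their promoters. In the retina they are known to respond to light, synaptic activity, growth factors and injury, and their RNA is short-lived. FOS pairs with JUN proteins to form the factor AP-1, EGR1 is a zinc-finger factor, and dual-specificity phosphatases such as DUSP1 switch the upstream kinases off again. Other immediate early genes encode secreted or structural proteins and act further downstream.

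FOS ranged from 3.87 to 5.74 in the high retinas (median 4.43, log2), from 3.44 to 3.88 in the middle ones and from 2.48 to 3.24 in the low ones. EGR1 ranged from 3.44 to 4.89 in the high retinas (median 4.34), from 2.77 to 3.98 in the middle ones and from 2.00 to 3.11 in the low ones. The span over all arrays was 9.54-fold for FOS and 7.42-fold for EGR1. Control replicate 3 was the highest retina for FOS and sialyllactose replicate 9 for EGR1, so the same arrays did not lead in both genes.

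Across the 18 arrays FOS and EGR1 had a Pearson correlation of 0.66 and a Spearman correlation of 0.78, and Pearson's value was 0.76 without control replicate 3 and sialyllactose replicate 3, which lay farthest from the FOS median. The last retina inside the high group had a mean of 4.12 and the next one outside it 3.82. At the other border, 3.11 lay outside and 2.97 inside the low group. EGR1 had 2 dimmer probe sets that the ranking did not use. The brighter of these ranged from 1.10 to 2.14 in the high retinas and from 0.53 to 1.11 in the low ones, nearly apart, but of the same gene and so no further evidence.

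**Figure D1:**
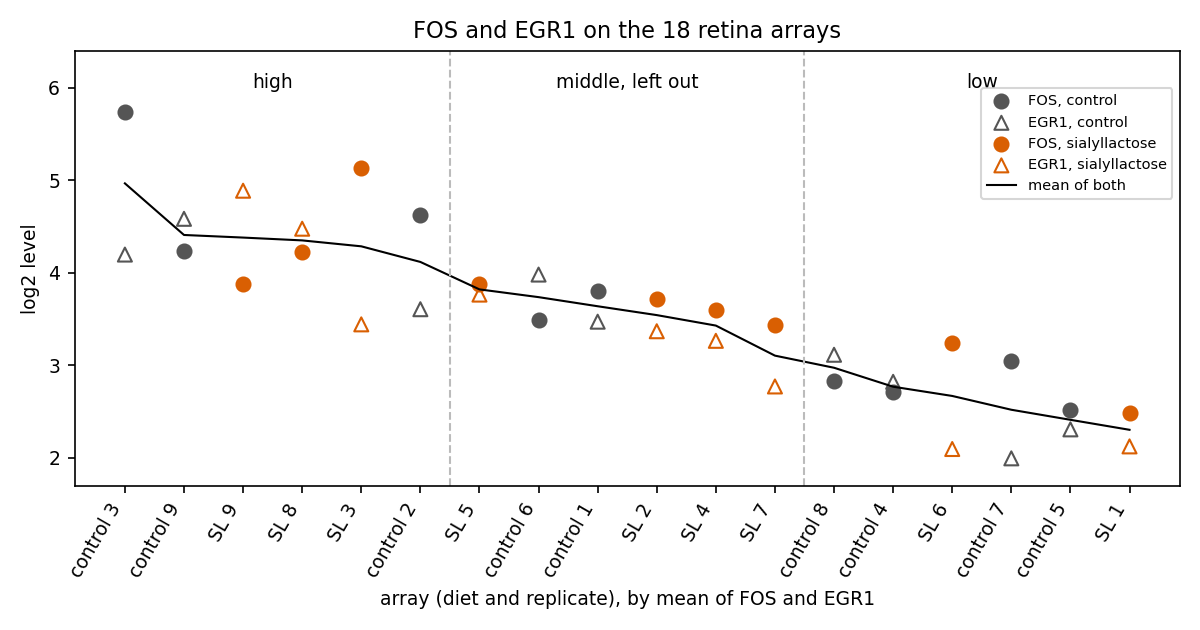
FOS (filled circles) and EGR1 (open triangles) log2 levels on each of the 18 arrays, ordered along the x axis by their mean (line), with grey for control and orange for sialyllactose (SL). The high arrays have means from 4.12 upward and the low arrays from 2.97 downward, and both diets stand in each group.

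The ranking did not use diet, so the pair could be compared between diets. The mean of FOS and EGR1 was 3.50 ± 0.89 in control and 3.54 ± 0.75 with sialyllactose (SD, n = 9 each), a difference of 0.04 that did not pass an exact two-sided permutation test over 48620 splits (p = 0.921). FOS alone differed by 0.06 (exact p = 0.884) and EGR1 alone by 0.01 (exact p = 0.976). The spread between piglets on the same diet was far larger than the difference between diets.

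With the dimmest left out, 16797 probe sets other than those of FOS and EGR1 were compared, high minus low, with limma and diet as a covariate. At a Benjamini-Hochberg adjusted p under 0.05, 0 passed (0% of those tested), the nearest, ADAMTS1, having an adjusted p of 0.151. Without adjustment, 1699 probe sets (10.1%) had a p under 0.05, 777 of them higher in the high retinas (4.63%) and 922 lower (5.49%). The high and low arrays did not overlap at 115 probe sets (0.685%), 32 higher and 83 lower. No gene is therefore said to have changed between the high and the low retinas, and differences are given as values with 95% intervals.

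The immediate early genes other than FOS and EGR1 came first. Of 78 genes in lists of immediate early transcription factors and of immediate early signalling and effector genes, 44 had a named probe set and 36 passed the filter on dim values. Of these 36, 28 were higher in the high retinas and 8 lower, by the sign of the limma difference with diet as a covariate. The share higher was 77.8%, against 49.2% of all probe sets. The median difference of the 36 was 0.09 on the log2 scale, against -0.003 over all. At an unadjusted p under 0.05 there were 5 (13.9%, against 10.1% of all), with ADAMTS1, IER2 and BTG2 higher and DUSP14 and NR4A2 lower. None passed adjustment, and the share past the unadjusted threshold was near that of all genes.

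Among the transcription factors and nuclear regulators, 13 of 16 were higher and 3 lower, with a median difference of 0.13. IER2, a small nuclear protein induced together with FOS, ranged from 3.26 to 3.77 in the high retinas (median 3.59) and from 2.87 to 3.32 in the low ones (median 3.06). All 6 high retinas lay above the low median, though the groups overlapped at their edges. The difference was 0.50 (95% interval 0.27 to 0.74, 1.42-fold), with an adjusted p of 0.345 in limma, and it was 0.57 within the control piglets and 0.41 within the sialyllactose piglets.

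BTG2, which restrains cell division, ranged from 4.14 to 5.002 in the high retinas (median 4.43) and from 3.43 to 4.30 in the low ones (median 4.14). The groups overlapped, and the difference was 0.39 (interval 0.08 to 0.69, adjusted p = 0.444). KLF10 (0.19), KLF2 (0.17), both zinc-finger factors, and the AP-1 members JUN (0.17), FOSL1 (0.16) and the stress-induced ATF3 (0.16) had small positive differences whose intervals all reached below 0. Within sialyllactose piglets FOSL1 differed by 0.04 and ATF3 by -0.02, against 0.25 and 0.29 within control. For KLF10 and KLF2 the values were 0.32 and 0.30 within sialyllactose piglets, against 0.09 and 0.08 within control. ATF3 stood near the dim limit (mean level 1.67). JUN, the partner of FOS in AP-1, ranged from 5.94 to 6.24 in the high retinas and from 5.66 to 6.09 in the low ones, so the groups overlapped in part.

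NR4A2, an orphan nuclear receptor often induced alongside FOS, ran the other way, from 2.12 to 2.47 in the high retinas (median 2.38) and from 2.33 to 2.71 in the low ones (median 2.51). Its difference was -0.18 (interval -0.35 to -0.01, adjusted p = 0.483). CEBPD, a factor of inflammation and stress, differed by 0.24, but by -0.05 without control replicate 3, the retina with the highest FOS, where it reached 3.45. The direction of CEBPD therefore rested on that retina, and the difference was -0.16 within the sialyllactose piglets.

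**Figure D2:**
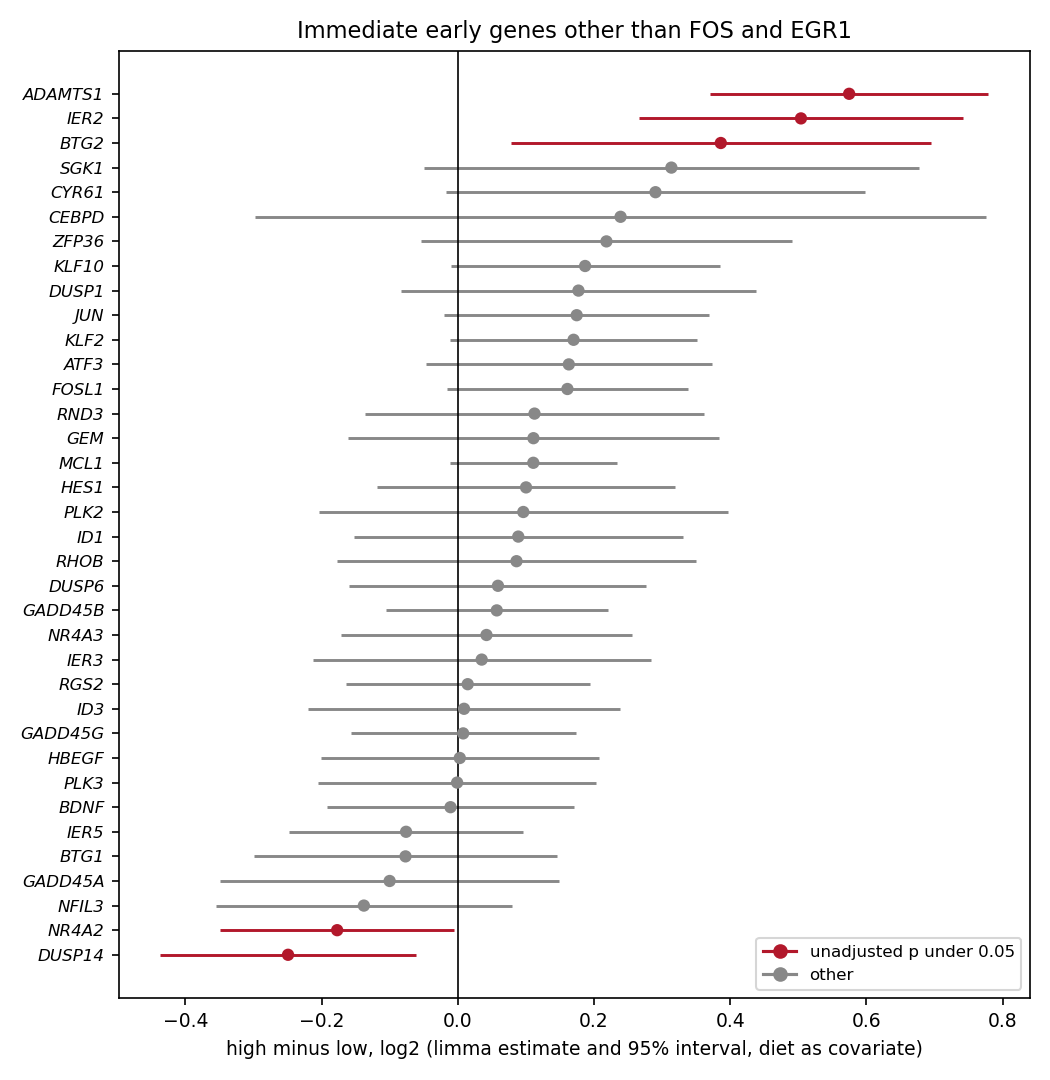
Difference between high and low retinas (log2, points) with its 95% interval (lines) for the 36 immediate early genes tested, from limma with diet as a covariate. Of these, 28 points lie above 0, and red marks the 5 genes with an unadjusted p under 0.05, none of which passed adjustment.

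Among the 20 signalling and effector genes, 15 were higher and 5 lower, with a median difference of 0.07. ADAMTS1, a secreted protease that trims proteoglycans of the matrix, had the lowest adjusted p of all probe sets. It ranged from 5.21 to 5.72 in the high retinas (median 5.53), from 4.81 to 5.69 in the middle ones (median 5.06) and from 4.73 to 5.14 in the low ones (median 4.95). Every high retina lay above every low retina, which made ADAMTS1 the 1 gene of the 36 without overlap (0.685% of all probe sets had none). The difference was 0.57 (interval 0.37 to 0.78, 1.49-fold, adjusted p = 0.151 in limma), it was 0.65 within control and 0.46 within sialyllactose piglets, and a second, dimmer probe set of ADAMTS1 gave 0.49. In bulk retina, fewer cells of a type and less RNA per cell cannot be told apart, for this gene or for any other given here.

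When each gene was taken as the mean of its probe sets, over 5708 genes, ADAMTS1 had an adjusted p of 0.0281 and a difference of 0.53. With single retinas left out of that version it passed in 3 of 12 fits, with differences from 0.48 to 0.58, and its adjusted p was 0.131 without sialyllactose replicate 1.

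DUSP1, the phosphatase that ends signalling by MAP kinases and a further marker of this response, was not separated. It ranged from 5.29 to 6.26 in the high retinas (median 5.68), from 5.48 to 5.71 in the middle ones and from 5.51 to 5.65 in the low ones (median 5.62). The high retinas held both the highest and the lowest value, while the low ones lay close together. The difference was 0.18 (interval -0.08 to 0.44, adjusted p = 0.623 in limma), and 0.06 without control replicate 3. It was 0.27 within control and 0.04 within sialyllactose piglets. DUSP1 thus did not separate the groups, although it was given as a marker of them.

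Another dual-specificity phosphatase, DUSP14, had an unadjusted p under 0.05 in limma, which DUSP1 did not, and was lower in the high retinas. DUSP14 ranged from 3.87 to 4.47 in the high retinas (median 4.29) and from 4.39 to 4.54 in the low ones (median 4.48). All high retinas lay below the low median, and the difference was -0.25 (interval -0.44 to -0.06, adjusted p = 0.422). SGK1, a kinase induced by serum and glucocorticoids, differed by 0.31 (interval -0.05 to 0.68), and ZFP36, which marks short-lived messages for decay, by 0.22 (interval -0.05 to 0.49), or 0.12 without control replicate 2. CYR61, a matrix-associated growth regulator near the dim limit (mean level 1.67), differed by 0.29, and by 0.11 without control replicate 3. Within control and within sialyllactose piglets, CYR61 differed by 0.49 and 0.006, ZFP36 by 0.37 and -0.004, and SGK1 by 0.14 and 0.56. MCL1, a survival protein of the BCL2 family, differed by 0.11, and NFIL3, a transcriptional repressor, by -0.14, or -0.07 without control replicate 2. The remaining 19 genes of both lists, among them NR4A3, IER3, DUSP6, PLK2, GADD45A, HBEGF and BDNF, lay between -0.10 and 0.11, 14 higher and 5 lower.

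**Figure D3:**
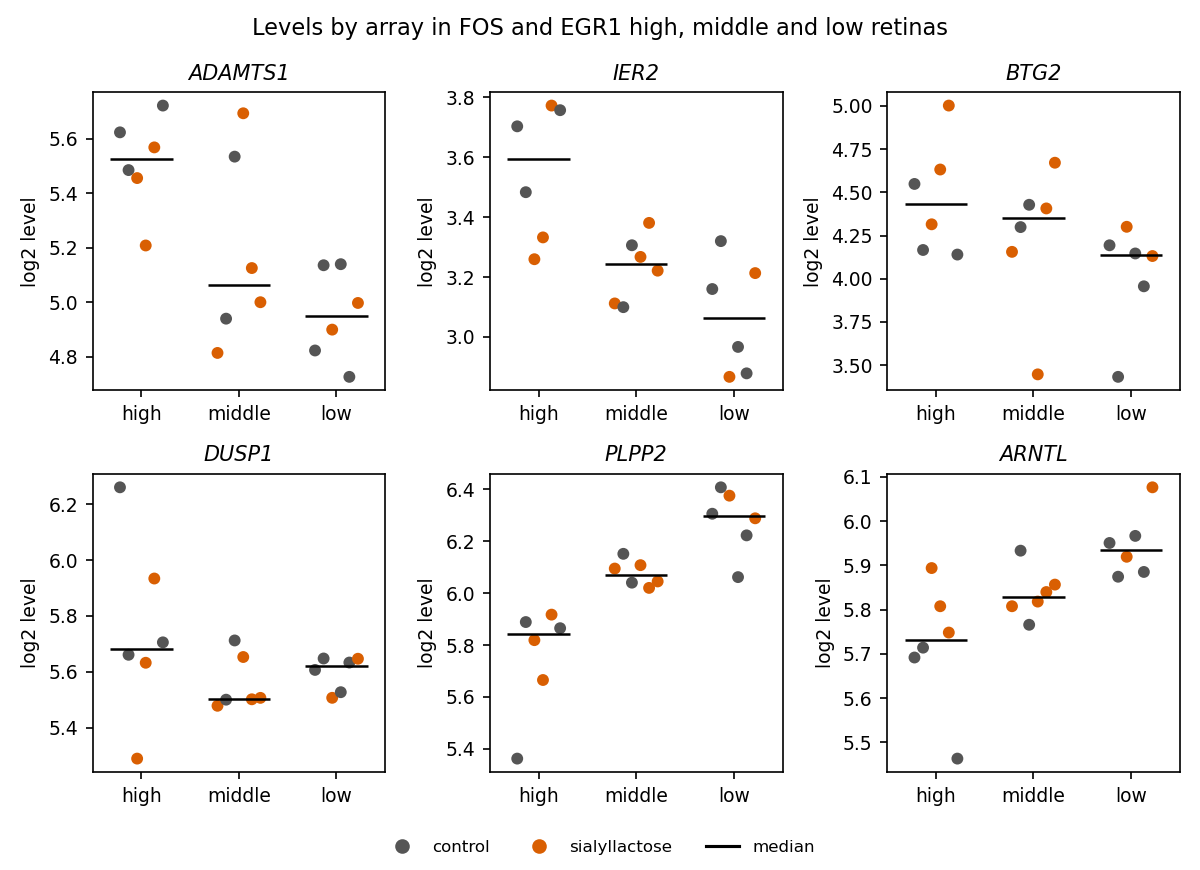
Log2 levels of 6 genes in the high, middle and low retinas, 6 arrays each (grey control, orange sialyllactose, line at the median). ADAMTS1 and PLPP2 show no overlap between high and low, while IER2, BTG2, ARNTL and DUSP1 overlap.

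Beyond the immediate early lists, the 10 named genes with the smallest p in each direction were taken. On the higher side ADAMTS1 and IER2 stood among them. HNRNPL, an RNA-binding splicing factor, ranged from 6.31 to 7.24 in the high retinas (median 6.85) and from 5.58 to 6.49 in the low ones (median 6.03), a difference of 0.81 (interval 0.46 to 1.16, adjusted p = 0.282). LOC100520248 ranged from 5.07 to 5.70 in the high retinas and from 3.87 to 5.14 in the low ones, a difference of 0.99 (interval 0.53 to 1.45, adjusted p = 0.345). For both, all 6 high retinas lay above the low median, and the groups overlapped at their edges.

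The other 6 on this side lay below the median level of the tested probe sets and differed by 0.29 to 0.35. PTPA, an activator of protein phosphatase 2A, did not overlap between the groups, at 3.17 to 3.50 in the high retinas and 2.93 to 3.16 in the low ones. PACSIN3, an adaptor of membrane traffic, was likewise apart, at 2.33 to 2.58 against 2.00 to 2.32. ADORA1, the adenosine A1 receptor, which dampens synaptic transmission, differed by 0.29 (interval 0.14 to 0.44), from 1.56 to 1.85 in the high retinas and from 1.19 to 1.59 in the low ones. With a mean level of 1.54, ADORA1 stood near the dim limit. CMTM7 (0.35), the chemokine CCL25 (0.34) and the peptidase NPEPL1 (0.31) completed the 10, each with an adjusted p of 0.345 and overlapping groups.

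On the lower side PLPP2, a membrane phosphatase that removes phosphate from lipids such as phosphatidic acid, stood first. It ranged from 5.36 to 5.92 in the high retinas (median 5.84), from 6.02 to 6.15 in the middle ones (median 6.07) and from 6.06 to 6.41 in the low ones (median 6.30). No high retina reached a low or a middle one. The difference was -0.54 (interval -0.75 to -0.33, adjusted p = 0.21 in limma), -0.54 within control and -0.53 within sialyllactose piglets.

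MRPL11, a protein of the mitochondrial ribosome, also stood apart, from 5.26 to 5.37 in the high retinas and from 5.45 to 5.70 in the low ones, a difference of -0.30. NRSN1, a vesicle protein of neurons, ranged from 6.47 to 6.70 against 6.73 to 6.99 (-0.29), and CCDC126 from 6.68 to 7.03 against 7.04 to 7.22 (-0.29). These 3 had no overlap between the groups, with adjusted p values of 0.282 to 0.345. The others overlapped: ACVR2A, an activin receptor (-0.44), SERPINI1, the neuronal protease inhibitor neuroserpin (-0.38), CARTPT (-0.38), the splicing factor HNRNPA1 (-0.28), ELMO1, a regulator of RAC signalling (-0.28), and FAM213A (-0.24). Of the 20 genes, 7 had no overlap, against 0.685% of all probe sets, and their choice by p favoured this.

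Which genes tracked the pair across all 18 retinas was described by Pearson correlation with the mean of FOS and EGR1. The most alike were SMS, spermine synthase (r = 0.82, rho = 0.80), UPK2 (0.79 and 0.78), NPEPL1 (0.76 and 0.77), COL17A1 (0.73 and 0.74) and IER2 (0.72 and 0.67). The most opposite, a set added after the values were seen, were PLPP2 (r = -0.85, rho = -0.82), ABHD10 (-0.79 and -0.87), ZBED5 (-0.76 and -0.79), the deubiquitinase USP9X (-0.75 and -0.65) and NRSN1 (-0.74 and -0.75). IER2 was the only gene of the immediate early lists among these 10. The 18 points of each correlation share 1 normalization, and the genes were picked for their correlation.

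When the mean of FOS and EGR1 entered limma as a slope over all 18 arrays in place of the groups, 2 named genes had an adjusted p under 0.05. The slope of PLPP2 was -0.28 for each unit of the mean (adjusted p = 0.0231), and that of MRAP2, an accessory protein of melanocortin receptors that was named only after its value was seen, was -0.49 (adjusted p = 0.0494). MRAP2 was dim, from 1.25 to 1.79 in the high retinas (median 1.54) and from 1.60 to 3.25 in the low ones (median 2.35). With each retina left out in turn, PLPP2 passed in 12 of 18 fits and MRAP2 in 3 of 18, and without control replicate 3 both had an adjusted p of 0.371.

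The 6 middle retinas took no part in choosing or fitting these differences. The middle means of the 20 genes with the smallest p all lay between the high and the low means, which choosing genes for a wide gap makes likely and which supports nothing further. Within the middle retinas the order was another. Of the 175 probe sets that were higher at an unadjusted p under 0.01, 52 correlated positively with the mean of FOS and EGR1 over the 6 middle arrays (29.7%, against 51.9% of all), and of the 241 that were lower, 26.1% correlated negatively (against 48.1% of all). None of the 10 genes on the higher side had a positive correlation there (ADAMTS1 -0.07, IER2 -0.45, HNRNPL -0.72), and 3 of the 10 on the lower side had a negative one (PLPP2 0.57). The middle retinas spanned only 0.72 of the 2.66 log2 units of the mean over all arrays. With 6 arrays and so short a span these are descriptions, and within the middle retinas they ran mostly against the direction between the outer groups.

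**Figure D4:**
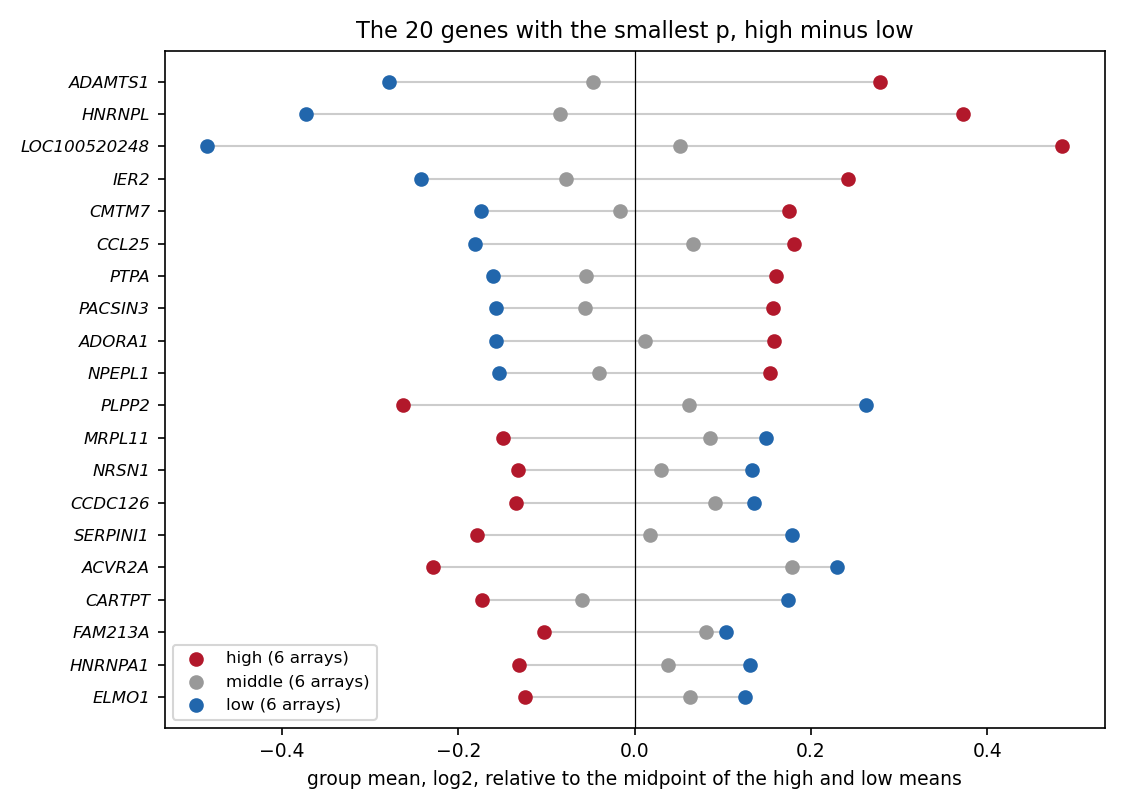
Group means (log2, 6 arrays each) of the 20 named genes with the smallest p, drawn relative to the midpoint of the high (red) and low (blue) means. All 20 middle means (grey) lie between the outer means, which the choice of genes with a wide gap makes likely.

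Other stress and stimulus programs were read from lists. Of 25 heat shock and protein folding genes, 9 were higher and 16 lower in the high retinas (median difference -0.06), and the 5 with an unadjusted p under 0.05 (20.0%, against 10.1% of all probe sets) were all on the lower side. HSPA8, the constitutive HSC70 chaperone, ranged from 8.87 to 9.52 in the high retinas and from 9.30 to 9.63 in the low ones (-0.25), but its 3 dimmer probe sets had small positive differences, so its direction depended on the probe set. Its partner DNAJA1 differed by -0.28 (interval -0.50 to -0.06), but by only -0.03 at a second, dimmer probe set. The mitochondrial chaperonin HSPE1 differed by -0.21 and the chaperonin subunit CCT7 by -0.14. CCT7 did not overlap between the groups, at 6.03 to 6.22 in the high and 6.23 to 6.43 in the low retinas. CRYAB, a small heat shock protein of stressed glia, was on the other side (0.28, interval -0.15 to 0.71), and 0.09 without control replicate 3.

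Of 16 antioxidant genes 3 were higher and 13 lower (median -0.07). At an unadjusted p under 0.05 there was 1 (6.25%, against 10.1% of all probe sets): GCLM, of glutathione synthesis, at -0.30. Among 12 genes of the unfolded protein response 6 were higher and 6 lower, and none had an unadjusted p under 0.05. Among 8 inflammatory early genes 3 were higher and 5 lower, and STAT3 alone had a low unadjusted p, with a difference of 0.25, or 0.16 without control replicate 3. ISG15, an interferon-induced ubiquitin-like protein, varied far more within each group than between them, from 2.83 to 6.47 in the high retinas and from 2.99 to 5.53 in the low ones (-0.15, interval -1.57 to 1.27). Of 20 interferon genes, 6 were higher and 14 lower, with none at an unadjusted p under 0.05.

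Of 6 circadian clock genes, 4 were higher and 2 lower, and the 2 with the smallest p pointed in opposite directions. ARNTL, the clock activator BMAL1, ranged from 5.46 to 5.89 in the high retinas (median 5.73) and from 5.87 to 6.08 in the low ones (median 5.94), a difference of -0.25 (interval -0.39 to -0.11, adjusted p = 0.345). All 6 high retinas lay below the low median, with a narrow overlap at the edge. PER1, a clock repressor that light and glucocorticoids also induce, ranged from 6.37 to 6.68 in the high retinas and from 6.23 to 6.42 in the low ones, a difference of 0.17 (interval 0.02 to 0.32). Of 13 glucocorticoid-responsive genes, among them PER1, SGK1 and GLUL, 8 were higher and 5 lower, with a median of 0.03, or -0.02 without control replicate 5.

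In glycolysis 11 of 16 genes were higher and 5 lower (median 0.09), with 3 higher and 1 lower at an unadjusted p under 0.05 (25.0%, against 10.1% of all probe sets). LDHA, which turns pyruvate to lactate, ranged from 8.26 to 8.91 in the high retinas (median 8.48) and from 8.14 to 8.62 in the low ones (median 8.22), a difference of 0.32 (interval 0.08 to 0.55, adjusted p = 0.422). SLC16A3, which exports lactate, differed by 0.35 and GPI, an early enzyme of the pathway, by 0.13. LDHB, the other lactate dehydrogenase subunit, differed by -0.14, so the values of both subunits had opposite signs. Of 14 genes of hypoxia and glucose transport, which share LDHA, 9 were higher and 5 lower. The vasodilator peptide gene ADM differed by 0.22 (interval 0.06 to 0.37) and EPAS1, a hypoxia-inducible factor, by -0.30.

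Among the neurons, amacrine and neuropeptide genes gave mostly lower values in the high retinas. Other interneurons did not share this: of 3 bipolar and horizontal cell genes 2 were higher and 1 lower (median 0.08), with 0 at an unadjusted p under 0.05. Of 7 amacrine genes 2 were higher and 5 lower, and of 7 neuropeptide and activity-dependent genes, which share SST and NPY with them, 2 were higher and 5 lower, each list with 2 genes at an unadjusted p under 0.05, all lower (28.6%, against 10.1% of all probe sets, with SST in both). GAD1, which makes the transmitter GABA, ranged from 7.07 to 7.34 in the high retinas (median 7.23) and from 7.34 to 7.61 in the low ones (median 7.44), a difference of -0.26 (interval -0.40 to -0.11, adjusted p = 0.345). CARTPT, a neuropeptide precursor, ranged from 6.26 to 6.79 against 6.66 to 7.13. SST, the somatostatin precursor, ranged from 2.55 to 4.21 in the high retinas and from 3.08 to 6.91 in the low ones, a difference of -1.36 that was -0.71 without sialyllactose replicate 1. Each of these 3 had lower medians in the high retinas and overlapping groups.

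Of 6 retinal ganglion cell genes all 6 were lower at their brightest probe sets, by small amounts (median -0.09). STMN2 was at -0.14 (interval -0.38 to 0.09), and none had an unadjusted p under 0.05. THY1 of this list differed by -0.08, and its dimmer probe sets by -0.29 and 0.03. The 3 rod genes were lower as well, with the rod arrestin SAG at -0.11 (interval -0.30 to 0.07). Of 5 cone genes 4 were higher, with the blue cone opsin OPN1SW at 0.33 (interval -0.12 to 0.77). Of 7 synaptic vesicle genes 4 were higher and 3 lower, with SYT1 at -0.11, or -0.37 at a dimmer probe set. At the brightest probe set of each, no interval of these named genes excluded 0.

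Of 13 Mueller glia genes 8 were higher and 5 lower. GLUL, the glutamine synthetase by which Mueller glia clear glutamate, ranged from 10.13 to 10.97 in the high retinas (median 10.72) and from 10.18 to 10.61 in the low ones (median 10.40), a difference of 0.31 (interval 0.04 to 0.58, adjusted p = 0.454), positive at all 3 of its probe sets. APOE, the lipid carrier made by glia, differed by 0.35 (interval -0.04 to 0.74), or 0.18 without control replicate 2. DAPL1 of the same list had a larger difference of the other sign, -0.64 (interval -1.39 to 0.10), and the list's median was 0.01. Of 6 astrocyte and reactive glia genes 4 were higher, with S100A10 at 0.27 (interval 0.03 to 0.51) and GFAP, the glial filament of reactive glia, at 0.19 (interval -0.15 to 0.53). S100B, a calcium-binding protein of astrocytes, was at -0.30 (interval -0.73 to 0.13). GFAP's 3 dimmer probe sets differed in sign.

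ALDH1A1, which makes retinoic acid and in mammals marks dorsal retina, had a wide spread, from 4.96 to 6.89 in the high retinas (median 6.60) and from 2.72 to 6.97 in the low ones (median 4.71). All high retinas lay above the low median, yet the highest value of all was in the low group. The difference was 1.69 (interval 0.51 to 2.87, 3.23-fold, adjusted p = 0.394), 1.18 without sialyllactose replicate 1, and 0.90 within control against 2.82 within sialyllactose piglets. EFNB2, an axon guidance ligand of dorsal retina, differed by 0.64 (interval 0.11 to 1.16). CYP26A1, which breaks retinoic acid down, differed by about as much the other way, -0.63 (interval -1.35 to 0.09). Of the 5 dorsal and ventral genes tested 3 were higher and 2 lower.

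**Figure D5:**
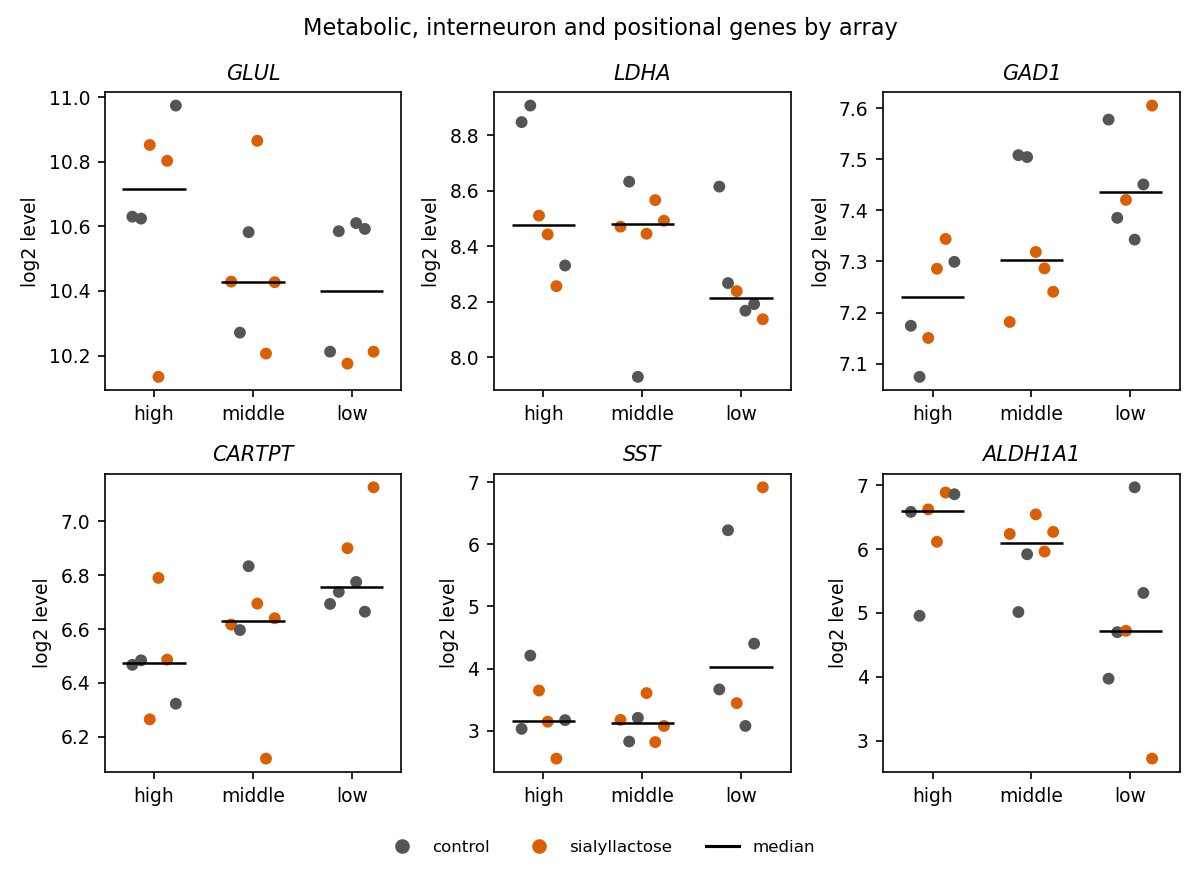
Log2 levels of 6 genes of metabolism, interneurons and retinal position in the high, middle and low retinas, 6 arrays each (grey control, orange sialyllactose, line at the median). GLUL, LDHA and ALDH1A1 have higher medians and GAD1, CARTPT and SST lower medians in the high than in the low retinas, and all 6 overlap.

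The retinal markers SAG, ARR3, OPN1SW, RLBP1, GLUL, SNAP25, THY1 and NEFL all passed the filter on dim values, and markers of other cell types were set beside the comparison. Of 9 pigment epithelium and choroid genes 3 were higher and 6 lower, and TTR, the carrier made by pigment epithelium, ranged from 4.54 to 6.93 in the high retinas and from 4.78 to 8.32 in the low ones (-1.11, interval -2.23 to 0.02). The mean level of this list ranged from 3.08 to 3.52 in the high and from 3.08 to 3.84 in the low retinas. Of 7 microglia and leukocyte genes 6 were higher and 1 lower, with AIF1, a microglial marker, at 0.47 (interval 0.16 to 0.78), and P2RY12, another, at -0.28 (interval -0.68 to 0.13). The list's mean level ranged from 2.09 to 2.80 against 2.05 to 2.40. Of 15 endothelium and pericyte genes 7 were higher and 8 lower, with PECAM1, an endothelial adhesion molecule, at 0.18, the endothelial receptor KDR at -0.16 and the pericyte gene RGS5 at -0.18. The median of that list was -0.04, and its mean level ranged from 3.21 to 3.52 against 3.36 to 3.48. AIF1 stood near the dim limit, C1QA and the blood marker ALAS2 were below it, and HBB differed by -0.11 (interval -0.24 to 0.03). The part of these cells in the differences above was not tested.

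Array controls gave a view of RNA quality. The 3' minus 5' difference of ACTB, which grows as RNA degrades, averaged 3.36 in the high and 3.15 in the low retinas, a difference of 0.21 (exact permutation p = 0.212). It was 0.11 for GAPDH (exact p = 0.273) and 0.17 for EF1A (exact p = 0.171). Among 8 spike-in controls the largest differences were -0.34 for dap (exact p = 0.143) and -0.32 for phe (exact p = 0.121). The lowest p adjusted over these 11 measures was 0.467, and 6 against 6 arrays can reach 0.00217. All 3 RNA measures were larger on average in the high retinas, with overlapping groups, and their part in the differences was not tested.

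Finally, whether genes followed FOS and EGR1 differently in the diets was tested by an interaction with the slope over all 18 arrays. At an adjusted p under 0.05, 0 of 16797 probe sets passed in limma, with no adjusted p below 0.9998, and 576 (3.43%) had an unadjusted p under 0.05. Differences within the sialyllactose piglets, such as that of ALDH1A1, set 3 high retinas against 2 low ones, and no gene was shown to follow the pair differently in the diets.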

How the data were processed

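The authors deposited log2 values, 1 for each probe set on each array. The submitters' processing notes name RMA and Affymetrix Expression Console. RMA sets all arrays to 1 distribution and gives no detection call. The groups, genes and lists were chosen with earlier results of these data known. Of 24123 probe sets, 124 controls and the 7200 dimmest (30%) were left out. Symbols came from the platform annotation, which gave 1 symbol to 10099 probe sets, several to 198 and none to 13826, and 9989 were matched in a RefSeq table. For each gene the brightest tested probe set was used.

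High and low arrays were compared with limma 3.58.1 (R 4.3.3, lmFit and eBayes), with diet as a covariate and Benjamini-Hochberg adjustment over all tested probe sets. The step was tested on simulated data. Array correlations lay between 0.981 and 0.992, and the number of arrays limits the precision. Samples carry separate titles, and where they were not separate animals, p-values measure only the spread between samples. Named were the members of both immediate early lists, the 10 genes per direction with the smallest p, up to 4 members of each other list, and the 5 genes most like the mean of FOS and EGR1; MRAP2 and the 5 most opposite were added after their values were seen. ALDH1A1, TTR, SST, ISG15, CRYAB and GFAP were named too. DAPL1, S100B, CYP26A1 and RGS5 were given with values outside this choice. The 77 genes refitted under other settings did not include them, nor every other gene named here. Equal replicate numbers across diets were not treated as pairs. Of 9 pairs with the same number, 3 correlated above 0.1 (range -0.11 to 0.16), and 6 of 18 arrays were closest to their own number. The high group held both retinas numbered 3 and both numbered 9, while all numbers in the low group differed. The high arrays may therefore not all be independent. The labels do not say whether equal numbers share a litter or handling, and this was not tested.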

Additional observations from a re-analysis of the deposited data

Results flagged for a closer look

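Among 154 groups of 6 arrays looked at for 77 genes, 8 held an array far from the other 5, and chance alone would flag about 1 in 20. Control replicate 3, the retina with the highest FOS, was that array 3 times in the high group: CYR61 was 2.54 there against 1.60 to 1.76 in the others, ACVR2A 2.96 against 2.48 to 2.61, and STAT3 5.72 against 5.07 to 5.28. Control replicate 8 stood apart in the low group, with PER1 at 6.23 against 6.37 to 6.42 and LDHA at 8.62 against 8.14 to 8.27. Control replicate 7 had EFNB2 at 3.61 in the low group, against 1.98 to 2.52. In the high group LDHB was 9.80 in control replicate 2, against 9.61 to 9.67, and USP9X was 6.21 in sialyllactose replicate 8, against 5.96 to 6.05.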

How the results depend on the processing

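No probe set passed an adjusted p of 0.05 in the 6 against 6 comparison under any other filter, scaling, covariate, weight or variance prior tried, nor with any of the 12 arrays left out. Exceptions came from other definitions: 2 passed with a slope over 18 arrays, 1 (an unnamed probe set) with arrays ranked by EGR1 alone, and 1 (ADAMTS1) with gene means. The count at an unadjusted p under 0.05, 1699, was 952 with 9 against 9 arrays and 841 with EGR1 alone, and from 1298 to 1845 with single arrays left out. With replicate number as a block it was 1667, with 0 passing adjustment and a correlation within blocks of 0.119. Of 18 arrays, 6 correlated best with their own number. Higher values made up 45.7% of that count, 53.6% without the filter on dim probe sets and 38.3% with the dimmest 50% left out. The diet difference in the mean of FOS and EGR1 ranged from -0.10 (without control replicate 5) to 0.22 (without control replicate 3). Of 77 genes, 71 kept their direction in all fits. ISG15 was 0.060 with array weights, VCAM1 0.010 with 9 against 9, ZFP36 -0.011 with 4 against 4, and HSPA8 0.0012 and GFAP -0.011 with gene means. With single arrays left out CEBPD ranged from -0.046 to 0.38 and ISG15 from -0.70 to 0.25. Leaving out single arrays moved 21 of the 77 differences by over 1.5 times or across 0. Of 29 list medians, 15 changed sign under some alternative: 0 under centring or quantile scaling, 5 with the dimmest 50% left out, 8 with 9 against 9 arrays, 6 with EGR1 alone and 11 with some single array left out. Quantile scaling did move the size of some medians. Heat shock went from -0.063 to -0.028, amacrine from -0.063 to -0.030, antioxidant from -0.075 to -0.044 and glycolysis from 0.093 to 0.129. The leave-one-out fits of the slope and of gene means were added after the data were seen. The cause of these differences was not tested.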
